A study of Mus musculus with 2 samples.

Results

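Immediate early genes are genes whose transcription starts within minutes of a stimulus, without new protein synthesis. The 10 genes followed here were Fos, Fosb, Jun, Junb, Egr1, Atf3, Nr4a1, Ier2, Dusp1 and Zfp36, measured in mouse colon on an Affymetrix array, where several short oligonucleotides that match 1 transcript form a probe set. They were chosen by name: every probe set that the platform annotation gives to 1 of these symbols and to no other gene was taken. This gave 11 probe sets for 10 genes, out of 12393 genes with a single-symbol probe set. Jun had 2 probe sets and the 9 other genes had 1 each.

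The series compared distal colon of wild-type mice of the FVB strain (spelled TVB in the series design) with distal colon of IL-9 transgenic mice (Tg5), which carry a transgene for the type 2 cytokine interleukin-9. RNA of 4 mice was pooled for each genotype and read on 1 array, so that the series holds 2 arrays. Mice of both genotypes were bred free of specific pathogens. The age and sex of the mice, the strain background of the transgenic mice beyond the series design, the promoter that drives the transgene and the time of tissue collection are not given in the sources used here. With 1 array for each genotype there is no replicate error, no test was possible, and every difference below describes these 2 pools. The pools also differed in pancreatic transcripts: the 10 acinar markers with a probe set summed to 27026 (wild type) and 1663 (transgenic), each lower by 2-fold or more, and the part of this difference in the values below was not tested.

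The proteins of this group act at several levels of the early response. Extracellular signals reach the nucleus through mitogen-activated protein (MAP) kinases and cyclic AMP, which activate factors already present in the cell, such as serum response factor (SRF), its ternary complex partners and CREB. These switch on a first wave of transcription factors, among them the FOS and JUN subunits of AP-1, EGR1, ATF3 and the nuclear receptor NR4A1. The same wave makes its own brakes: DUSP1 dephosphorylates MAP kinases, and ZFP36 (tristetraprolin) binds AU-rich elements in messenger RNAs and speeds their decay. Many early transcripts are themselves short-lived.

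Of the 10 genes, 7 had higher intensity in the transgenic pool, Jun and Zfp36 had lower intensity, and Fosb was too dim for a ratio to be read. Among all genes with a readable ratio, 56% were higher in the transgenic pool. Nr4a1 and Atf3 differed most, at 2.32-fold and 2.16-fold higher, and Dusp1 followed at 1.54-fold. The other higher members, Egr1, Fos, Junb and Ier2, lay between 1.14-fold and 1.33-fold. Jun and Zfp36 were 1.24-fold and 1.23-fold lower.

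The promoters of the 3 members with the largest ratios, Nr4a1, Atf3 and Dusp1, and of the 2 lower members, Jun and Zfp36, are printed below. Each line holds the 250 bases before the annotated gene start, 5′ to 3′ on the strand of the gene, from RefSeq (GRCm38.p6). Capitals mark TGACG on either strand, the core of the cyclic AMP response element (CRE) bound by CREB and ATF proteins, and, in Zfp36, the CArG box, the element bound by SRF.
Nr4a1 (chr15:101266596-101266845, plus strand): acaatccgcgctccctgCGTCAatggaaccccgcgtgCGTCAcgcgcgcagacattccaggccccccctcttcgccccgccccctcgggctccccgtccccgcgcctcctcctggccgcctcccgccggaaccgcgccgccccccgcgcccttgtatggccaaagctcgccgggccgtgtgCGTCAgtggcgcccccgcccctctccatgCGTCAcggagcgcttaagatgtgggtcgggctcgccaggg
Atf3 (chr1:191183334-191183583, minus strand): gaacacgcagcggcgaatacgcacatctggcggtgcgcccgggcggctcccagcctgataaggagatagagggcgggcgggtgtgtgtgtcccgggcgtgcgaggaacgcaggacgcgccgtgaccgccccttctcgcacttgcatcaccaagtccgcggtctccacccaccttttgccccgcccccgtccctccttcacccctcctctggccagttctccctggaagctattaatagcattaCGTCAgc
Dusp1 (chr17:26508473-26508722, minus strand): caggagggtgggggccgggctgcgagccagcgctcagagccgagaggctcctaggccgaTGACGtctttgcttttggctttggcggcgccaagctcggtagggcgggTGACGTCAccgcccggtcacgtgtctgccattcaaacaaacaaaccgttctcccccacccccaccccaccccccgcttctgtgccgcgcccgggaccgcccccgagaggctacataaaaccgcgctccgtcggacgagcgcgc
Jun (chr4:95052223-95052472, minus strand): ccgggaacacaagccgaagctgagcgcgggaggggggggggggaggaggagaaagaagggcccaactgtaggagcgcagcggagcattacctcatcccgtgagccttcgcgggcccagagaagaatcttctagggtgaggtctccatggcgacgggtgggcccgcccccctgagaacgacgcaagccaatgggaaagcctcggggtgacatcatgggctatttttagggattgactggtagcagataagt
Zfp36 (chr7:28379229-28379478, minus strand): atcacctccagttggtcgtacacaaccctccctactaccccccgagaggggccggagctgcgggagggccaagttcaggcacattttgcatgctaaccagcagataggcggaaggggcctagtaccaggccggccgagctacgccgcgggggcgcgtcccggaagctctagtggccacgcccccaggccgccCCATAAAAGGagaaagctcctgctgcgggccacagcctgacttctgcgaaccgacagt

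In the Nr4a1 promoter the CRE core occurred 4 times, with first bases at −233, −213, −69 and −40 from the gene start. Dusp1 had it at −191, −143 and −140, the last pair overlapping within 1 full palindromic element, TGACGTCA. Atf3 had 1, at −7. The printed Jun and Zfp36 windows held no TGACG, and Zfp36 held 1 CArG box at −58. Only exact matches were counted. The Jun window holds tgacatca, which differs from the full element by 1 base.

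The first members by role were the AP-1 subunits. AP-1 is a dimer of a FOS and a JUN protein, or of JUN proteins alone, that binds DNA through basic leucine zippers. Fos (probe set 1423100_at) read 778 in wild type and 1026 in transgenic colon, a log2 ratio (transgenic over wild type, as for all log2 ratios below) of 0.40. Fosb (1422134_at), which encodes a second FOS protein, had intensities of 10.3 and 13.8. Both lay below 19.8, the 40th percentile of all intensities, which served as a floor under which no ratio was taken.

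Jun was the only member read by more than 1 probe set. Probe set 1417409_at gave 320 in wild type and 258 in the transgenic pool, a log2 ratio of −0.31. Probe set 1448694_at gave 202 and 162, a log2 ratio of −0.32. The 2 probe sets of Jun thus gave nearly the same ratio, with wild type the higher on each. Junb (1415899_at), whose protein is a weaker transactivator than JUN, went the other way, from 122 to 152, a log2 ratio of 0.31.

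The ratios of the AP-1 genes therefore had both signs within these pools: Fos and Junb were higher and Jun was lower in transgenic colon. ATF3, a leucine zipper protein that pairs with JUN proteins and represses many of its targets as a homodimer, had the second largest ratio of the group. Atf3 (1449363_at) read 68.1 in wild type and 147 in transgenic colon, a log2 ratio of 1.11.

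**Figure D1:**
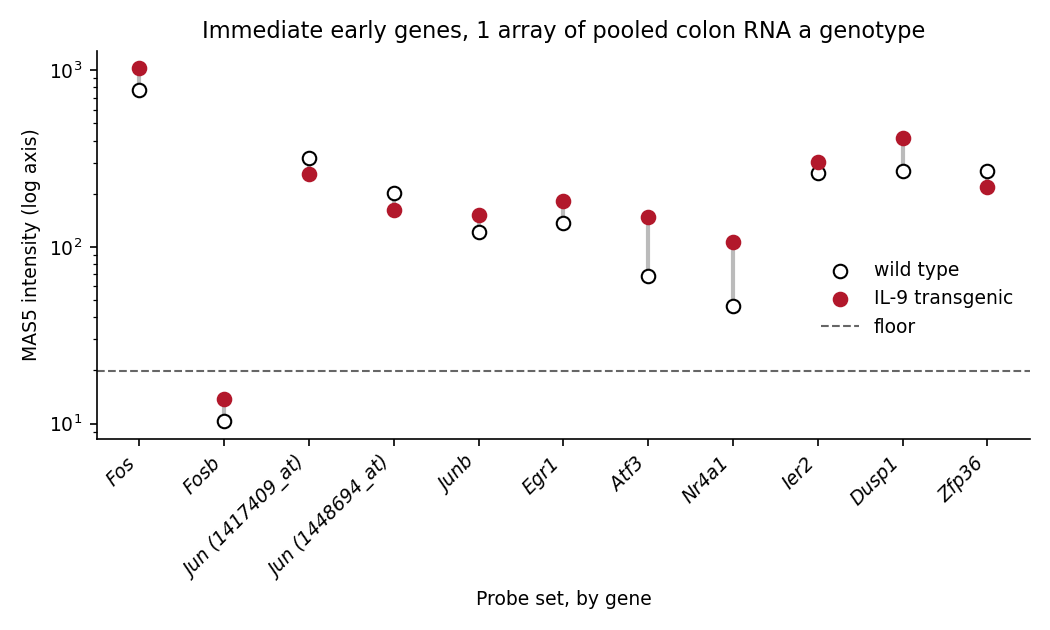
Intensity of each of the 11 probe sets on a log axis, with an open circle for the wild-type pool, a filled circle for the IL-9 transgenic pool and a dashed line at the floor of 19.8. Each circle is 1 array of RNA pooled from 4 mice; the circles lie farthest apart for Nr4a1 (46.1 and 107) and Atf3 (68.1 and 147), and both Fosb circles lie under the floor.

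Among the other transcription factors, NR4A1 (NUR77) is an orphan nuclear receptor whose activity is set mainly by how much of it is made, and it is known as a marker of recent antigen receptor signalling in lymphocytes. Nr4a1 (1416505_at) read 46.1 in wild type and 107 in transgenic colon, a log2 ratio of 1.22 and the largest of the group. The other NR4A genes stayed under the floor in both pools, Nr4a2 at 9.52 and 8.86 and Nr4a3 at 4.88 and 3.27.

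EGR1 is a zinc finger factor that binds GC-rich sites and is switched on through SRF and its ternary complex partners. Egr1 (1417065_at) had 137 in wild type and 182 in the transgenic pool, a log2 ratio of 0.42. Its relatives Egr2, Egr3 and Egr4 were below the floor on both arrays, with intensities from 2.88 to 19.2, so Egr1 was the only EGR gene with a readable ratio. The NR4A and EGR relatives were named after their values were seen.

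IER2 is a small nuclear protein of the early response. Ier2 (1416442_at) had 263 in wild type and 301 in the transgenic pool, a log2 ratio of 0.19, the smallest of the positive ratios.

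The last members by role were negative regulators. The genes for the 2 feedback proteins of the group had ratios of opposite sign. Dusp1 (1448830_at) had 269 in wild type and 415 in the transgenic pool, a log2 ratio of 0.63. Zfp36 (1452519_a_at) had 269.6 in wild type and 218 in the transgenic pool, a log2 ratio of −0.30. A lower level in tissue RNA can mean fewer cells of a type or less RNA in each cell, and the same holds for a higher level; pooled bulk RNA cannot tell these apart.

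These ratios were set beside those of all 8346 measured genes, a gene being measured where its brightest probe set exceeded the floor on at least 1 array. The 9 measured members exceeded the floor on both arrays, so none of their ratios is a bound. Of the 9, 2 (Nr4a1 and Atf3) were higher by 2-fold or more, against 0.767% of all measured genes, and 0 were lower by as much, against 0.611%. At 1.5-fold the counts were 3 higher, against 4.09% of measured genes, and 0 lower, against 2.85%. A positive log2 ratio was found in 7 of the 9 and in 56% of measured genes, and a negative one in 2 of the 9 and in 44%. The median log2 ratio of the 9 members was 0.40, beside 0.04 over all measured genes.

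Among all measured genes Nr4a1 ranked 36th and Atf3 48th by log2 ratio, counted from the highest. Dusp1 ranked 285th, with 3.40% of genes above it. Egr1, Fos and Junb ranked 793rd, 865th and 1270th, and Ier2 2274th. Jun and Zfp36 lay on the other side, with 11.7% and 12.1% of measured genes having a smaller ratio. The middle 95% of all ratios ran from −0.61 to 0.70 on the log2 scale, and Nr4a1 and Atf3 were the members outside it.

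**Figure D2:**
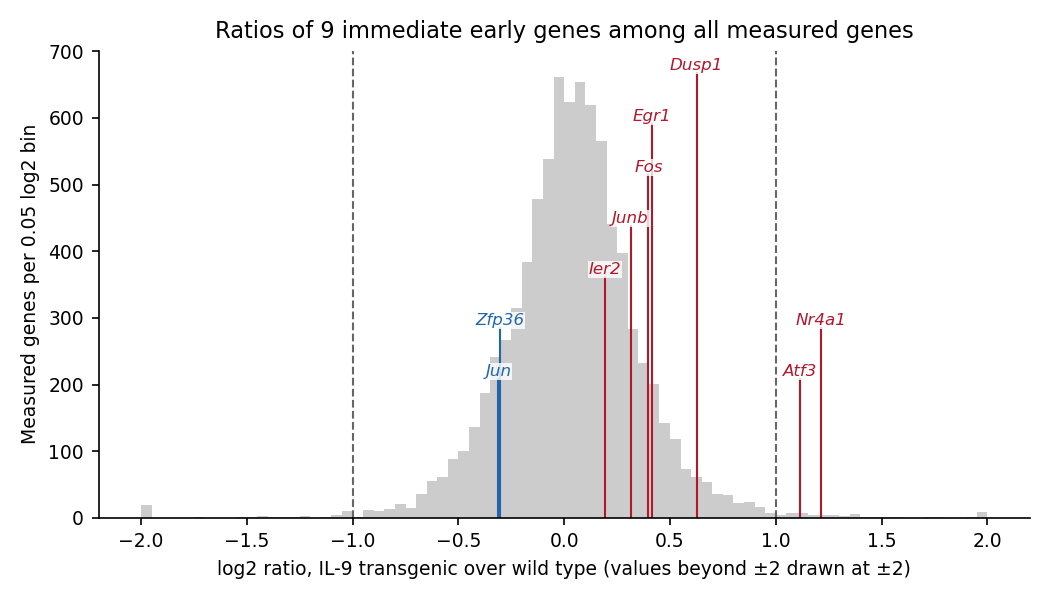
Histogram of the log2 ratio (IL-9 transgenic over wild type) of the 8346 measured genes in bins of 0.05, with dashed lines at 2-fold and a line of arbitrary height at the ratio of each of the 9 measured members. Nr4a1 (1.22) and Atf3 (1.11) lie beyond the dashed line on the right, Dusp1 (0.63) lies on the right flank, and Jun (−0.31) and Zfp36 (−0.30) lie on the left flank.

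Ratios scatter more at low intensity, so the members were also set beside genes of like brightness, with the measured genes split by mean intensity into 4 classes of equal size, numbered from the dimmest. In class 2, which holds Nr4a1, 95% of genes lay between −0.59 and 0.75 on the log2 scale, with 2.5% beyond either end. In class 3, which holds Atf3, Egr1 and Junb, the same range was −0.54 to 0.59. In class 4, the brightest, which holds Dusp1, Fos, Ier2, Jun and Zfp36, it was −0.46 to 0.55. Nr4a1, Atf3 and Dusp1 lay outside the range of their class and the 6 other members inside it.

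Probe sets that read the same gene gave a technical measure of scatter: over the 2847 genes with more than 1 of them above the floor in both pools, the pooled within-gene SD of the log2 ratio was 0.28. It holds no spread between mice or arrays. The SD of a difference between 2 such ratios is 0.40. In the order of the members, the steps from Atf3 to Dusp1 (0.49) and from Ier2 to Zfp36 (0.50) exceeded it. The SD is technical, so whether these steps would hold in other mice is not known. The other steps, from 0.0072 between Zfp36 and Jun to 0.21 between Dusp1 and Egr1, were smaller than this spread, so the order of neighbours within Nr4a1 and Atf3, within Dusp1, Egr1, Fos, Junb and Ier2, and within Zfp36 and Jun is not resolved.

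Immediate early promoters share sequence features that the choice by name did not use. Egr1 and Ier2 had no window here, and the member search skipped a chromosome that the shares over all promoters kept. RefSeq promoter windows were read for the 8 other members: Fos, Fosb, Jun, Junb, Atf3, Nr4a1, Dusp1 and Zfp36. Their 250-base windows were rich in G and C, from 58.4% in Fos to 74.4% in Nr4a1, with a median of 65.8% beside 52.4% over all 32851 promoters of the table. The CRE core TGACG, searched on both strands, was found in 6 of the 8 (Fos, Fosb, Junb, Atf3, Nr4a1 and Dusp1), against 17.8% of all promoters. Among the 10574 promoters at least as rich in G and C as that of Fos, a comparison added after the data were seen, the share was 26.7%.

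The 6 promoters with a CRE core include those of the 5 higher members for which a window was read. The 2 promoters without a core are those of the lower members Jun and Zfp36. The sixth promoter with a core belongs to Fosb, which had no readable ratio. This is a description of 8 windows, without the higher members Egr1 and Ier2. A match is not a shown binding site, and elements outside these windows were not searched. Any link between the core and the ratios was not tested.

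Further motifs were counted in the same windows. The full element TGACGTCA, which contains the core on each strand, was in Dusp1 alone among the 8, against 1.55% of all promoters and 2.68% of the G and C rich ones. The EGR site, GCGTGGGCG or GCGGGGGCG, was in Fosb, Nr4a1 and Zfp36, against 3.06% of all promoters and 8.51% of the G and C rich ones. The CArG box was in Zfp36 alone, against 1.47% and 0.965%, and the AP-1 site, TGACTCA or TGAGTCA, was in 0 of the 8, against 4.46% and 2.56%. The ETS site CCGGAA, bound by ternary complex factors among others, was in Nr4a1 and Zfp36, against 12.0% of all promoters and 21.0% of the G and C rich ones. The GC box GGGCGG, which can overlap an EGR site, was in 7 of the 8, against 32.7% and 73.1%. The TATA box TATAAA was in Fos alone, against 12.4% and 2.91%.

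**Figure D3:**
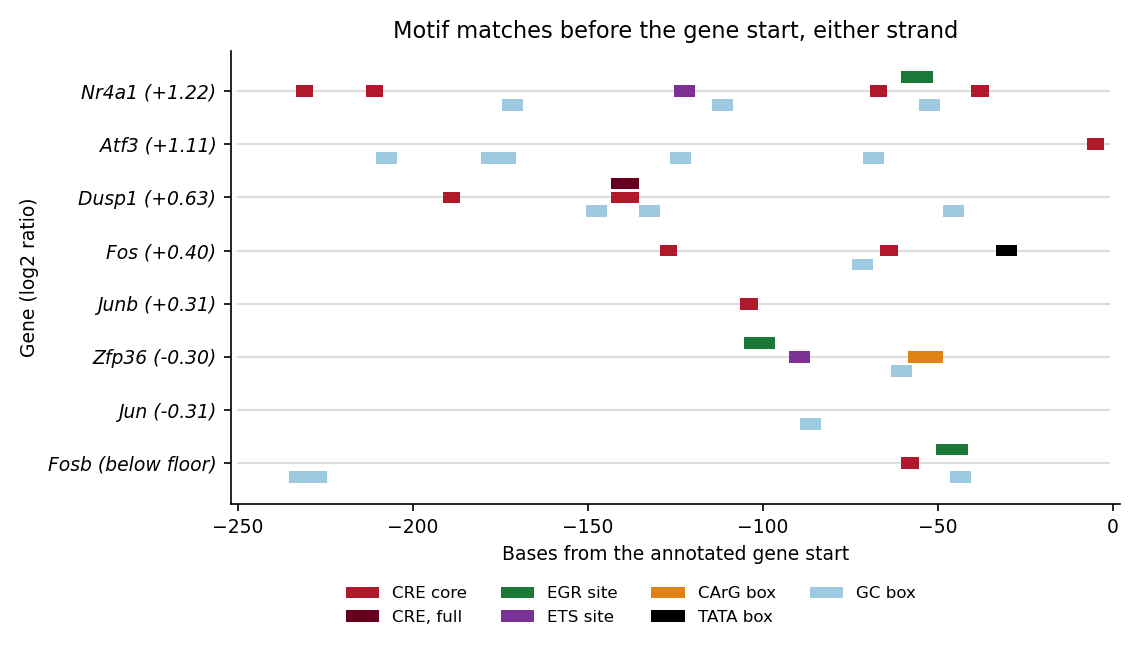
Positions of motif matches on either strand in the 250 bases before the annotated start of 8 members, ordered by log2 ratio (in brackets), with 1 colour for each motif. CRE cores (red) appear in the rows of the 5 higher members with a window and of Fosb, and in neither the Zfp36 row nor the Jun row. Only exact matches are drawn.

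Other early response genes, and genes of signalling, mRNA decay and heat shock, were then followed through 8 further lists, which hold no member. The lists are thus not of early genes alone. Together they had 115 measured genes, of which 0 differed by 2-fold in either direction, 6 were higher by 1.5-fold or more (Jdp2, Socs3, Pim3, Plaur, Tnfaip3 and Zc3h12a) and 2 lower (Ptgs2 and Dusp18). With the floor at the 20th percentile, 5 of 138 differed by 2-fold, each under 19.8 in at least 1 pool. Positive ratios numbered 58 and negative ratios 57, and the median log2 ratio was 0.01, beside 0.04 over all measured genes.

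The other AP-1 and ATF subunits had 11 measured genes, 4 positive and 7 negative, with a median of −0.12. Jdp2, a leucine zipper repressor of AP-1, had 28.8 in wild type and 44.3 in the transgenic pool (log2 ratio 0.62). Atf4, the effector of the integrated stress response, had 0.58 by its brightest probe set and −0.36 by its other measured probe set. Fosl2, a FOS relative, fell under the floor in the transgenic pool (25.5 and 17.1) and was at least 1.29-fold lower, and Maff, a small MAF protein gene, had −0.32. Jund, the JUN gene that is expressed most steadily in unstimulated cells, had 507 and 434, a log2 ratio of −0.22, and was named after its value was seen. Of the JUN genes, Jun and Jund were lower and Junb higher in transgenic colon, but the Jund ratio is smaller in size than the technical SD of 0.28.

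The other early transcription factors had 16 measured genes, 10 of them positive, with a median of 0.16. The largest ratio was that of Bhlhe40, a basic helix-loop-helix repressor, at 0.54 (255 and 370). Myc, the growth regulator, had 0.41, and Per1, a clock gene that is also induced early, 0.37. Id2, an inhibitor of basic helix-loop-helix factors, had −0.40, with −0.42 by its other measured probe set.

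The other early effectors and secreted products had 29 measured genes, 15 positive and 14 negative, with a median of 0.01. Those at least 1.5-fold higher were Socs3, a feedback inhibitor of cytokine receptors, Pim3, a serine/threonine kinase, Plaur, the urokinase receptor, and Tnfaip3, an inhibitor of NF-κB, with log2 ratios of 0.83, 0.77, 0.71 and 0.62. Tnfaip3 was named after its value was seen. The other measured probe sets of Socs3 had 0.25 and at least 0.34, and that of Pim3 had 0.41. Ptgs2, the inducible cyclooxygenase, was 1.63-fold lower by its brightest probe set (48.5 and 29.8) and had a log2 ratio of 0.01 by its other one.

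Among the other dual specificity phosphatases, relatives of DUSP1, 5 of 9 measured genes were positive and the median was 0.03. Dusp6, which acts on ERK kinases, had 143 and 189, a log2 ratio of 0.40. Dusp19 and Dusp12 had 0.39 and 0.25, the other probe set of Dusp19 being lower in transgenic colon (21.6 and 15.1, the latter under the floor), and Dusp18 was 1.57-fold lower at 41.6 and 26.4. The 6 others with a probe set stayed under the floor in both pools, including Dusp2, a phosphatase of activated lymphocytes, which was named after its value was seen.

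Genes that carry the signal upstream of these factors were also counted. The MAP kinase cascade had 20 measured genes with a median of 0.00 (−0.0039), 9 of them positive. Map3k7 (TAK1) had 0.54, Mapk9 (JNK2) 0.31, Map3k5 (ASK1) 0.29 and Rps6ka3 (RSK2) −0.27 by their brightest probe sets. The probe sets of Map3k7 and Rps6ka3 did not give 1 sign. The next brightest of Map3k7 had 0.13, and of 2 others with 1 pool under the floor, 1 was lower and 1 higher in transgenic colon. The others of Rps6ka3 had 0.11 and −0.55. The list of SRF, ternary complex and CREB factors had 10 measured genes, 6 positive, with a median of 0.09. Srf itself had 0.26 by its brightest probe set and −0.40 by its other one, its coactivator gene Mrtfa had 0.27, and Crtc3, a CREB coactivator gene, was at least 1.43-fold higher. Creb1 was lower by at least 1.17-fold.

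The ZFP36 family and the mRNA decay partners had 10 measured genes, 6 positive, with a median of 0.14. The relatives of Zfp36 had opposite signs, Zfp36l2 at 0.23 (516 and 604) and Zfp36l1 at −0.20 (497 and 433). Both ratios are smaller in size than the technical SD of 0.28. Zc3h12a, the mRNA-cleaving regnase-1, was at least 1.53-fold higher, and Hnrnpd, an AU-rich element binding protein gene, had 0.23.

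Heat shock genes, another response that cells mount within minutes, had 4 of 12 measured genes positive and a median of −0.12. The inducible chaperone gene Hspa1b had 394 and 329 by its brightest probe set (−0.26) and was also negative by its 2 others (−0.58 and −0.36). Hsp90aa1, also a chaperone gene, had −0.37 by its brightest probe set and −0.05 and −0.13 by its others. Hsph1, of the same kind, had −0.31 by its brightest probe set and −0.78 by its other one, and the co-chaperone gene Bag3 had 0.22.

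**Figure D4:**
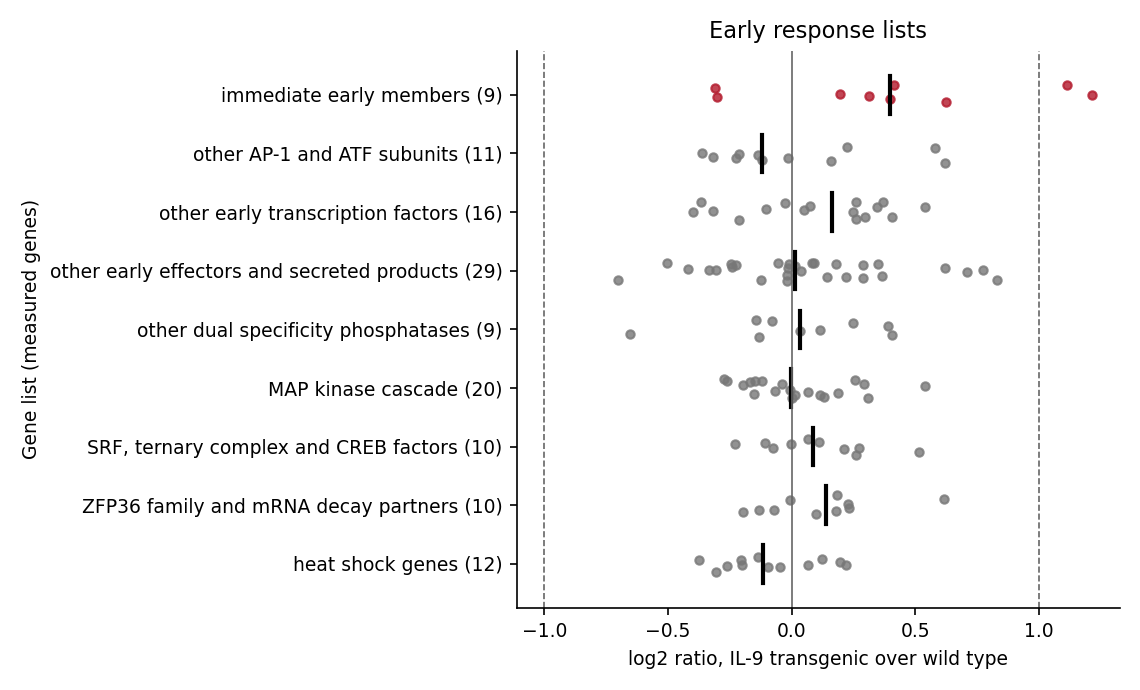
Log2 ratio (IL-9 transgenic over wild type) of every measured gene of the 9 lists, 1 point a gene and a black bar at the median, with vertical spread added only to separate points and dashed lines at 2-fold. The median of the immediate early members is at 0.40, while the medians of the 8 other lists lie between −0.12 and 0.16 and none of their points reaches a dashed line.

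The composition of the pools was read from marker lists. Il9 read 5.14 in wild type, under the floor, and 862 in transgenic colon, in the direction of the labels. The labelled tissue was checked on colon epithelium markers, of which 12 of 12 with a probe set exceeded the floor, with summed intensities of 21342 (wild type) and 20236 (transgenic), and smooth muscle markers (8 of 8 measured) summed to 9487 and 9138.

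Markers of several cell types were higher in transgenic colon. Sums below run over every marker with a probe set, dim ones included. Mast cell markers (9 of 11 higher) summed to 267 in wild type and 3392 in transgenic tissue, of which Mcpt1 and Mcpt2 made up 19.6 and 2769, while Tpsab1 (35.7 and 29.1) and Hdc (1.93 and 0.797) were lower. B cell markers (6 of 7 higher) summed to 540 and 1323, endothelial markers (7 of 8) to 337 and 489, and macrophage and dendritic cell markers (8 of 10) to 1656 and 1916. T and NK cell markers (7 of 8) summed to 74.7 and 182, but 0 of the 8 exceeded the floor in wild type, and Gzmb alone went from 2.22 to 55.2. Enteric neuron and glia markers (1 of 8 higher) summed to 613 and 478. The part of these cells in the ratios of the immediate early genes was not tested.

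The member ratios were recomputed under 8 alternative settings. Atf3 was at least 2-fold higher in all 8 and Nr4a1 in 7. The exception was a floor raised to the 60th percentile (55.1), which lies above the wild-type intensity of Nr4a1 and left its ratio as a bound of 0.96. Each of the 7 higher members was positive under all 8, Jun was negative under all 8, and Zfp36 was negative under the 7 that kept its probe set. Several settings could not change these ratios. A member with 1 probe set keeps its ratio when probe sets are averaged or, if retained, when others are left out. A member above a floor on both arrays keeps its ratio at that floor. These counts of settings therefore do not measure how firm a ratio is.

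**Figure D5:**
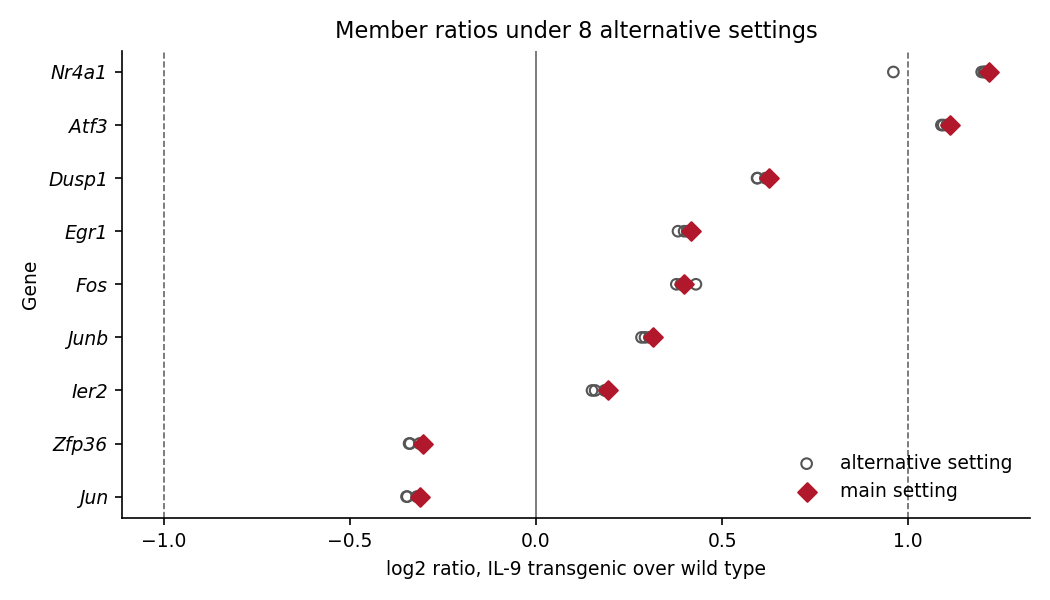
Log2 ratio (IL-9 transgenic over wild type) of each of the 9 measured members under the main setting (diamond) and the alternative settings (open circles), with dashed lines at 2-fold. The circles lie close to the diamonds, except 1 circle of Nr4a1 at 0.96, a bound set by the higher floor, and no member crosses 0. Several of the settings could not change a member's ratio.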

How the data were processed

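Colon RNA of 2 pools, wild type and IL-9 transgenic, was read on 1 array each, and only the value table deposited by the authors was used. Its linear-scale intensities come from MAS5 according to the submitters' processing notes, and the authors deposited them in that form; version and probe genome build are not given in the sources used here. MAS5 subtracts background and mismatch signal, which makes ratios of dim probe sets unstable. Trimmed means (2% off each end) were 100.04 on both arrays.

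Of 22690 probe sets, 64 were controls; 20380 others had 1 gene symbol, 691 several and 1555 none. RefSeq (GRCm38.p6) held the identifiers of 20351 and changed 0 symbols. The brightest probe set stood for a gene. Intensities under the floor of 19.8 (40th percentile of non-control values of both arrays) were set to it, and log2 ratios followed without rescaling. A gene was measured when above the floor on at least 1 array; 2-fold was the call and 1.5-fold a second description. Precision is limited by having 1 array a group, and no test was run.

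All members and, in each other list, genes at least 2-fold different plus up to 4 with the largest ratios were named; a few others are marked. Members, lists, floor and alternatives were chosen with earlier results of these data known. Motifs were searched in the 250 bases before each RefSeq gene start. Alternatives were median scaling, quantile normalization, loess (span 0.3), floors at the 20th and 60th percentiles, no floor with a pseudocount of 0.735, the mean of all probe sets, and leaving out probe sets ending in _s_at, _x_at or _a_at. Python 3.11.15, pandas 2.3.3 and statsmodels 0.14.6 were used. The ratio procedure was run on simulated data with set fold changes in bright genes, which checks the arithmetic and not the ratios of these pools.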

Additional observations from a re-analysis of the deposited data

How the results depend on the processing

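The count of members at least 2-fold higher was 2 under 7 of 8 alternatives and 1 with the floor at the 60th percentile, where Nr4a1 became a bound. Several of these alternatives could not change a member's ratio, as described above. The count at least 2-fold lower was 0 under each, and the median log2 ratio of the members ran from 0.38 (loess) to 0.41 (floor at the 20th percentile, which brought Fosb in at a log2 ratio of 0.42). Over all genes the floor moved the counts most: 202 were at least 2-fold higher and 258 lower with the 20th percentile, and 29 and 27 with the 60th, against 64 and 51. Of the 115 measured genes of the 8 other lists, 0 differed by 2-fold in the main setting. With the floor at the 20th percentile 5 of 138 did (Batf, Egr3, Sos1, Mrtfb and Zc3h12a). Without a floor 3 did (Batf, Sos1 and Zc3h12a). No paired analysis was possible because each genotype has 1 array and the labels give no replicate numbers. Dim probe sets such as that of Fosb limit what can be read, and no alternative can stand in for replicate pools.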
